A study of Mus musculus with 6 samples.

Results

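The AP-1 transcription factor genes were examined for p65 occupancy in mouse epidermal cells. They were 9 genes, Jun, Junb, Jund, Fos, Fosb, Fosl1, Fosl2, Batf and Atf3, of 21000 protein-coding genes with a curated RefSeq start site. A peak was assigned to a gene when its midpoint lay nearest to a start site of that gene, and peaks within 50 kb of a member's start site were also collected where another gene was nearer. By this rule AP-1 genes held 38 of 8525 peaks in adult mice, 26 of 4169 in aged mice given control IgG (aged/IgG) and 36 of 6014 in aged mice given antibodies against IL-17A and IL-17F (aged/anti-IL-17). With the window added, the numbers were 55, 36 and 45.

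In ChIP–seq, DNA fragments bound to a protein are collected with an antibody and sequenced, and occupied places appear as peaks of fragments. The antibody recognized p65, the NF-κB subunit encoded by Rela. All mice were C57BL/6J. Adult mice were untreated and carry no age in weeks in the labels. Aged mice were 73 weeks old at the start and received intraperitoneal injections for 12 weeks, either of a control IgG or of blocking antibodies against IL-17A and IL-17F. The labels name no genetic modification. Skin was treated with trypsin and a suspension of epidermal cells was made, with no sort of a single cell type stated in the labels, and chromatin from 4 mice per condition ended in 1 peak list. A list of peaks holds no expression values, so the labelled cell type could not be checked against markers. Adult and aged/IgG differed in age and in having been injected, which cannot be told apart. In such bulk chromatin, fewer cells with an occupied site and less p65 per cell cannot be told apart either.

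Each condition had 1 pooled list and no replicates. Differences between conditions are therefore described without a test, and intervals on shares cover counting error only. The number of reads behind a single peak is unknown from the lists. The lists differed in length, and all 8525 peak names inside the list labelled adult begin with the word Treated, as do the 6014 names of aged/anti-IL-17, whereas the 4169 names of aged/IgG begin with Control. The labels were followed here, and the count of loci called in one condition and not in another is also given with those 2 lists exchanged. Strength is the authors' fold enrichment of a peak over its local background. Because each list has its own background, fold enrichments are given as deposited and the order of conditions was also read by percentile, the share of peaks in the same list with a fold enrichment at or below that of the peak. A longer list holds more weak peaks, so a locus shared by all lists tends to a higher percentile in adult, the longest, for that reason alone.

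AP-1 is a dimer of basic leucine zipper proteins. A Jun protein pairs with a Fos protein, with another Jun, or with relatives such as Batf and Atf3, and the dimer binds the palindromic site TGACTCA. Many of these genes are immediate early genes, which are switched on within minutes of a stimulus through factors that already sit in the cell. NF-κB is such a factor, held in the cytoplasm by inhibitors until a cytokine receptor, the IL-17 receptor among them, triggers their removal. In the epidermis Jun and Junb are known to restrain psoriasis-like inflammation, and Fos and Jun proteins accompany keratinocyte differentiation.

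The sequences under the most informative peaks are shown first. They were read from the reference assembly GRCm38.p6, the mm10 build, on the plus strand, and are genome sequence rather than reads. Capitals mark matches to the NF-κB consensus (the κB motif, a 10-base pattern that starts with 3 G and ends with 2 C, searched on both strands), except where stated otherwise. The window downstream of Junb is shown because it lies under the strongest peak of all AP-1 genes and holds 4 κB matches. The 2 Fosb windows lie under upstream peaks of which the first was called in all 3 lists and the second was absent from aged/IgG, and in the first the capitals further downstream are a match to the AP-1 site TGACTCA.
Junb 2.25 kb downstream, chr8:84976469-84976679: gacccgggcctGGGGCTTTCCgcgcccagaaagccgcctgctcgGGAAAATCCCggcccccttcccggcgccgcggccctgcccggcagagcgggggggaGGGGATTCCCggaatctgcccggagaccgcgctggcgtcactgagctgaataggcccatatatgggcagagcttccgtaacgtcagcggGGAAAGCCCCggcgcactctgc
Fosb 11.6 kb upstream, chr7:19321583-19321703: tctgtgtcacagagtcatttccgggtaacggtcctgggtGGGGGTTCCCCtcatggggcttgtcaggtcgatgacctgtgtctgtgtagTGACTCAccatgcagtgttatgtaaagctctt
Fosb 16.0 kb upstream, chr7:19326014-19326134: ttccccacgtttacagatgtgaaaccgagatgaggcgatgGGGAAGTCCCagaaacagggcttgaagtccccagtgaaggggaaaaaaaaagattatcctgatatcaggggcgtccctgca
In the Junb window the matches start at bases 84976480, 84976513, 84976569 and 84976658 of chromosome 8. In the Fosb window at 11.6 kb, 2 overlapping κB matches were counted as 1 site.

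Jun and Jund share the same κB word, GGGACTCTCC, in their 5′ untranslated regions. Both sites lay inside a peak in each of the 3 lists, and 30 bases around each are printed together with the site in the 5′ untranslated region of Fosl2, which was also covered in all 3 lists.
Jun, chr4:95051987-95052016: ggcgggagaaGGGACTCTCCaaatgctccc
Jund, chr8:70698349-70698378: agtagttgtgGGGACTCTCCaagggaccct
Fosl2, chr5:32136559-32136588: ccttggttagGGGACATCCCgggagcgaaa
The Jun site lies 0.221 kb, the Jund site 0.624 kb and the Fosl2 site 0.101 kb downstream of the annotated start.

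At the start sites of Fos and Fosb a κB match stands beside a CArG box, the site that serum response factor binds at immediate early genes. Here the capitals mark both motifs.
Fos, chr12:85473566-85473700: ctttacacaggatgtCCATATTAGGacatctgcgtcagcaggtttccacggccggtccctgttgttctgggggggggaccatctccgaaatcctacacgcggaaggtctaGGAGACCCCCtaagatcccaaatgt
Fosb, chr7:19310209-19310332: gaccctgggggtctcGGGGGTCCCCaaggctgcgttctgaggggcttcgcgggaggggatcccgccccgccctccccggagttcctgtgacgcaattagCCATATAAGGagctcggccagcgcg
In Fos the CArG box CCATATTAGG lies 0.305 kb and the κB match 0.210 kb upstream of the start, with 85 bases between them. In Fosb the CArG box CCATATAAGG lies 0.267 kb and the κB match 0.183 kb upstream, with 74 bases between them. Junb peaks held 2 further CArG boxes, each 24 bases from a κB match. In all, 4 of 38 adult AP-1 gene peaks (10.5%, 95% Wilson interval 4.17 to 24.1%) held a CArG box, against 2.52% of all adult peaks. The numbers were 2 of 26 in aged/IgG (7.69%, 2.14 to 24.1%), where the 2.52% of that list lies inside the interval, and 4 of 36 in aged/anti-IL-17 (11.1%, 4.41 to 25.3%, against 2.66%). This motif was chosen after seeing the data. A match is a description of the letters and not evidence of binding.

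The strongest peaks without an exact κB match lay upstream of Atf3 and far downstream of Fosl2. Their summits are shown with 60 bases on each side. In the Atf3 window the capitals mark the nearest word to the κB motif, which differs from it at 1 base. In the Fosl2 window no word within 50 bp of the summit had fewer than 2 differences, and nothing is in capitals.
Atf3 10.7 kb upstream, chr1:191193998-191194118: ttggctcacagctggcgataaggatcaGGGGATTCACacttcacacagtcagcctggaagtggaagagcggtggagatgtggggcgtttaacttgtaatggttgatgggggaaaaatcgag
Fosl2 46.9 kb downstream, chr5:32183400-32183520: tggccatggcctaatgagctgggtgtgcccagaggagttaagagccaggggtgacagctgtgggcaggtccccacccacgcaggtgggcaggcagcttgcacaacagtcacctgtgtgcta
A word with at most 1 difference occurred within 50 bp of 52.0% of all adult summits, so that the Atf3 word is common by this measure. An exact match occurred within that distance of 22.0% of them.

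All 9 AP-1 genes had an assigned p65 peak in all 3 conditions, or 8 of 9, without Batf, when predicted transcripts were added. Over all protein-coding genes the share with an assigned peak was 23.0% in adult, 12.9% in aged/IgG and 17.4% in aged/anti-IL-17, and 2387 genes (11.4%) had a peak in all 3. Within 50 kb of a start site, 9 of 9 members had a peak in each condition, against 43.4, 27.5 and 35.0% of all protein-coding genes in the same order. Several members had clusters of peaks. In each condition 6 of 9 members, namely Jun, Junb, Fos, Fosb, Fosl2 and Atf3, had 3 or more assigned peaks, against 2.65% of genes in adult, 0.833% in aged/IgG and 1.48% in aged/anti-IL-17.

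The number of peaks per gene differed between members. Fosb had 7 peaks in adult, 3 in aged/IgG and 8 in aged/anti-IL-17, a number that only 5 of 21000 genes reached in the last list. Junb had 7, 4 and 5 peaks in the same order, although only 10.2 kb of sequence lies nearer to its start than to that of a neighbour. This span was 112 kb for Fos, 107 kb for Jun, 73.3 kb for Batf and 46.2 kb for Fosl2. It was 29.8 kb for Atf3, 27.0 kb for Fosb, 16.2 kb for Fosl1 and 14.4 kb for Jund. Its part in the number of peaks was not tested. Jun had 6, 4 and 5 peaks, and Fos had 6, 3 and 6. Fosl2 and Atf3 had 4 in every list, Jund had 2, and Fosl1 and Batf had 1 each. Thus 4 genes had fewer peaks in aged/IgG than in either other list, and 5 had equal numbers. The aged/IgG list was also the shortest. With each list cut to its 4169 strongest peaks, AP-1 genes held 26 peaks in adult, 26 in aged/IgG and 24 in aged/anti-IL-17, so that the lower total in aged/IgG was not present at equal list length.

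**Figure D1:**
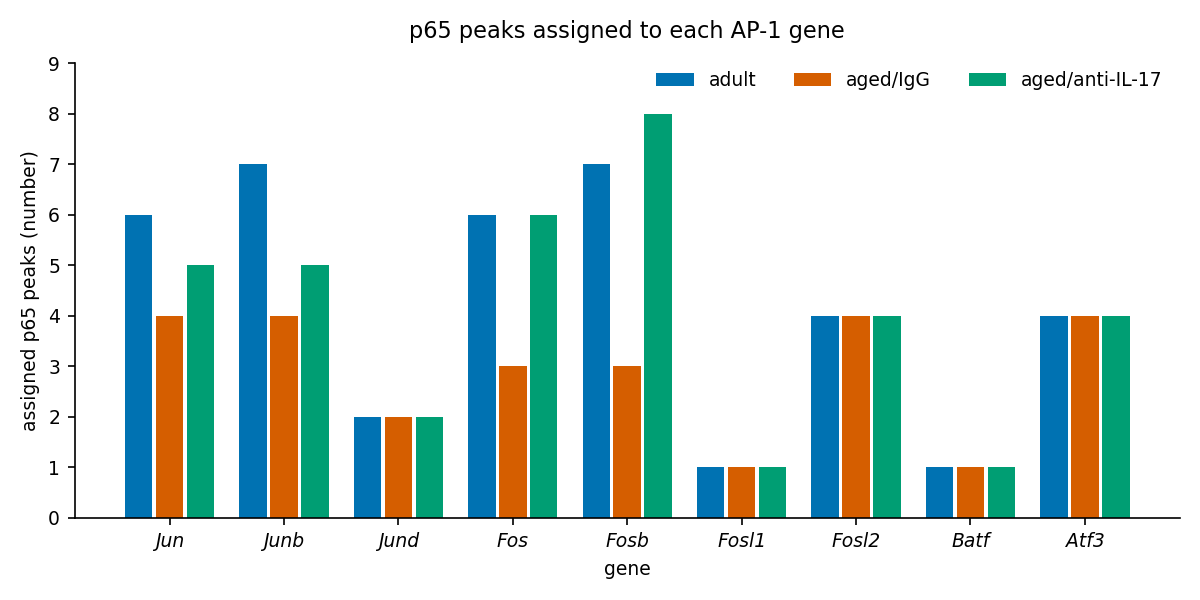
Number of p65 peaks assigned to each AP-1 gene (y axis) in the 3 conditions (bars, 1 pooled list each, no error). Jun, Junb, Fos and Fosb have 3 or 4 peaks in aged/IgG and 5 to 8 in the other lists, and the remaining genes have the same number in all 3.

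Junb, which encodes a Jun protein that often opposes Jun, carried the strongest peak of the family. The peak lay 2.25 kb downstream of the start in adult. Its summit was past the 3′ end of this single-exon gene in every list, and its edge reached into the gene. Its fold enrichment was 19.65 in the adult list, 18.76 in aged/IgG and 14.49 in aged/anti-IL-17. It ranked 9 of 8525, 2 of 4169 and 32 of 6014 by fold enrichment, so that it stood near the top of every list. All 4 κB matches printed above lay inside it in all 3 lists, the nearest 3, 5 and 3 bp from the summit. In aged/anti-IL-17 the peak was 2141 bp wide, equal to the widest peak of that list, compared with 1126 bp in adult and 1226 bp in aged/IgG. The wide peak overlapped the place of a separate adult peak 1.17 kb downstream of the start (2.95).

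The other Junb peaks were weaker and lay around and upstream of the start. At 2.42 kb upstream fold enrichment was 5.26 in adult, at 2.18 kb it was 5.60 in aged/IgG, and at 2.13 kb it was 4.01 in aged/anti-IL-17, and this locus held κB matches and an AP-1 match in every list. At the start site the values were 4.52, 3.14 and 3.46. The locus 1.13 kb upstream reached the 55.3 percentile in adult and 66.9 in aged/IgG but only 0.964 in aged/anti-IL-17. A peak 3.76 kb upstream with a κB and an AP-1 match was called in adult at 4.56 and in aged/anti-IL-17 at 2.93, and was not called in aged/IgG.

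Jun, which encodes the prototype of the family and the target of the JNK kinases, had a wide peak over its start and part of its single exon. In adult 1 peak of 1847 bp covered the start and that part of the exon with a fold enrichment of 5.46 (80.6 percentile). In aged/IgG it was split into a part at the start with 4.05 (56.8 percentile) and a part in the coding sequence with 2.67. In aged/anti-IL-17 the corresponding parts had 2.91 (19.5 percentile) and 2.92. The percentile of the start site was thus highest in adult and lowest in aged/anti-IL-17. A weaker locus 0.776 kb upstream had 2.71 in adult, 2.35 in aged/IgG and 2.84 in aged/anti-IL-17. Its percentiles were 12.7, 1.37 and 16.5, so that it was lowest in aged/IgG and highest in aged/anti-IL-17. An upstream pair of loci lay at 24.2 and 23.5 kb. The former was called in all 3 lists at 4.85, 3.58 and 4.26, and the latter in adult at 3.73 and in aged/anti-IL-17 at 2.60 alone. Peaks 3.19 kb downstream (3.05), with a κB match, and 30.6 kb upstream (3.33) were called in adult only. Of the 6 Jun loci 3 were called in all lists, against 36.6% of all loci.

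Jund, which encodes the Jun protein that resting cells express most steadily, had 2 assigned peaks in every list. A wide peak in the 5′ untranslated region had a fold enrichment of 4.36 in adult, 3.77 in aged/IgG and 3.23 in aged/anti-IL-17, which are percentiles 67.6, 48.6 and 34.1. It covered the κB word shared with Jun and a match to the cAMP response element TGACGTCA in every list. A second peak 2.11 kb upstream had 4.30, 3.48 and 2.97. No peak overlapped the RefSeq promoter window of Jund, which runs from 250 bases before to 50 after its annotated start.

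**Figure D2:**
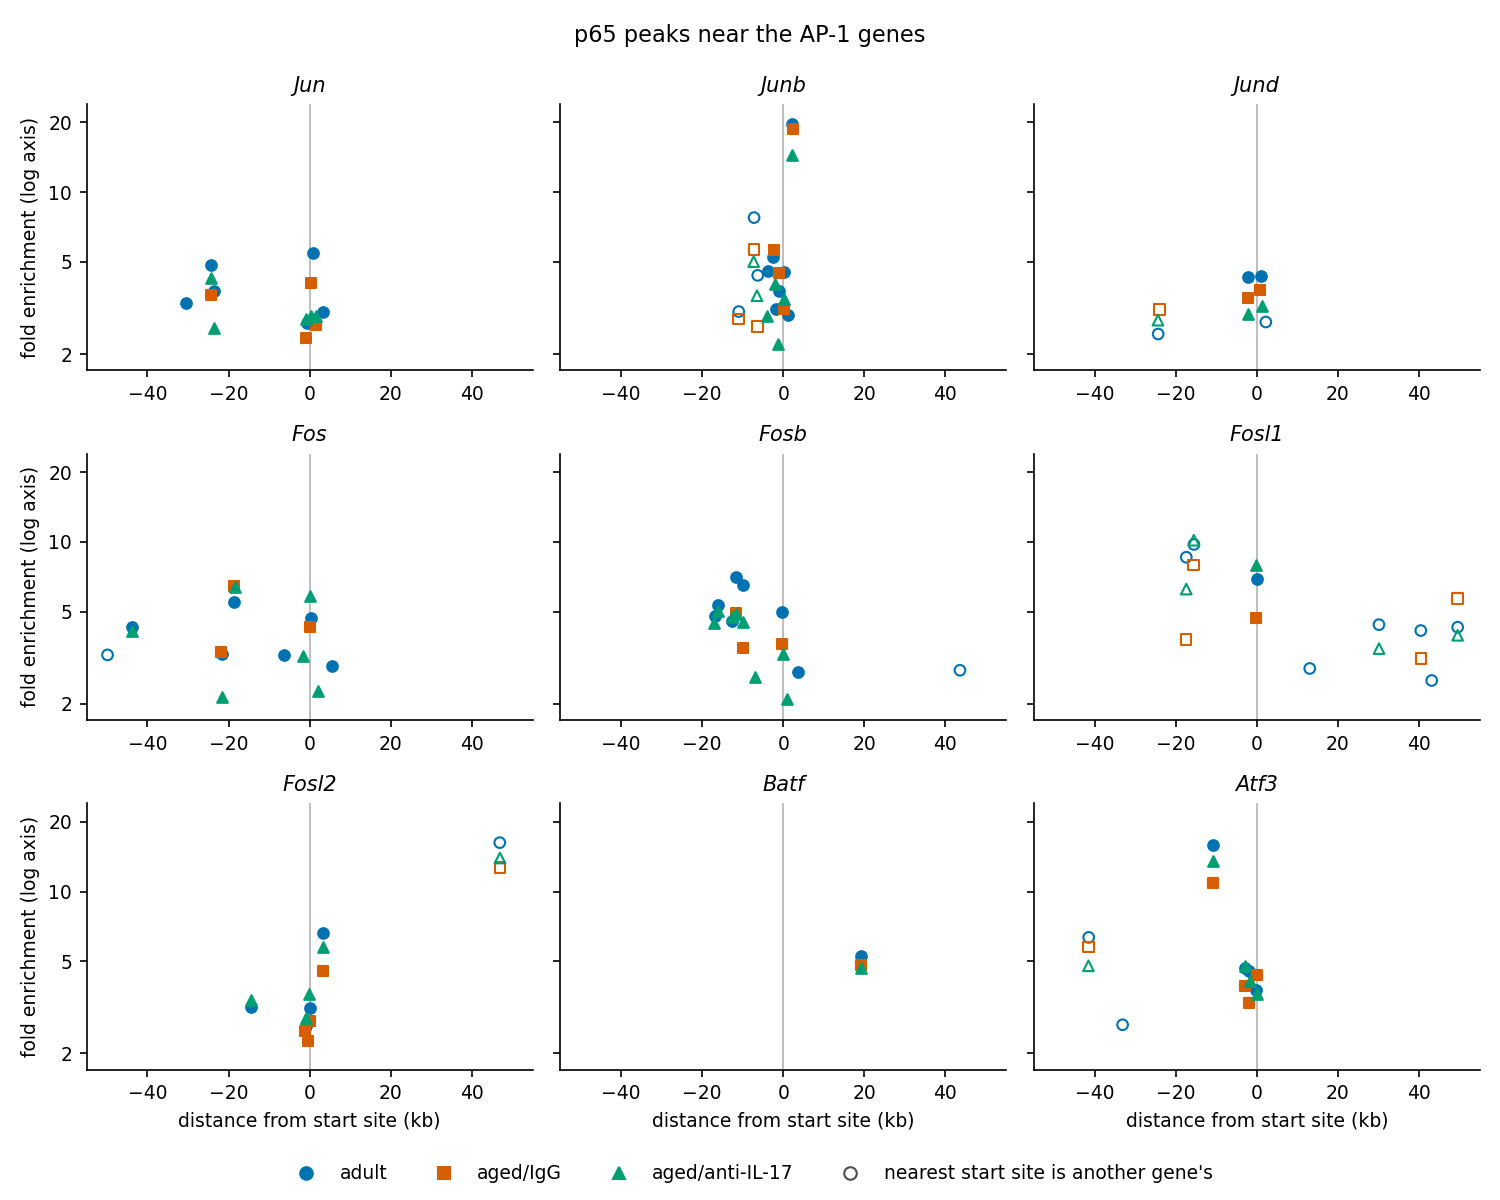
p65 peaks by distance of the midpoint from the start site of each AP-1 gene (x axis, kb, positive is downstream) and fold enrichment (y axis, log scale), with 1 point per peak and colour and shape for the condition. Open symbols are peaks within 50 kb whose nearest start site belongs to another gene. The points at Junb between 14.49 and 19.65, at Atf3 between 10.84 and 15.91, and the open points at Fosl2 between 12.68 and 16.26 stand above all others.

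Fos, which encodes the classical immediate early partner of Jun, had a peak over its start in all conditions. Fold enrichment there was 4.71 in adult, 4.29 in aged/IgG and 5.81 in aged/anti-IL-17 (percentiles 72.9, 62.5 and 82.9). The adult and aged/anti-IL-17 peaks covered the κB match and CArG box printed above, and the aged/IgG peak, which began at base 85473698, covered neither. The strongest Fos peak lay 18.7 kb upstream in adult with 5.50, and had 6.46 in aged/IgG and 6.38 in aged/anti-IL-17. It held no exact κB match. Its percentile was higher in aged/IgG (87.5) and in aged/anti-IL-17 (86.6) than in adult (81.0). With predicted transcripts added, this peak was no longer assigned to Fos, whose strongest peak was then the one over the start.

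Of the 8 Fos loci 5 were not called in aged/IgG, against 56.6% of all loci, and the other 3 were called in all lists. A peak 43.8 kb upstream was called in adult at 4.29 and in aged/anti-IL-17 at 4.12, and the nearest aged/IgG peak lay 21360 bp away. Peaks 6.42 kb upstream (3.26) and 5.62 kb downstream (2.90), each with a κB match, were called in adult only, in deciles of adult strength in which 76.7 and 82.8% of all peaks had no aged/IgG counterpart. Peaks 1.69 kb upstream (3.21) and 1.95 kb downstream (2.27) were called in aged/anti-IL-17 only. A locus near 21.6 kb upstream was called in all 3 at 3.27, 3.34 and 2.13.

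Fosb, a second Fos protein with strong immediate early induction, had 9 loci, the most of any member, of which 6 were not called in aged/IgG, against 56.6% of all loci. A row of 5 loci stretched from 9.85 to 16.9 kb upstream. The peak at 9.85 kb had a fold enrichment of 6.49 in adult, 3.47 in aged/IgG and 4.50 in aged/anti-IL-17. The peak at 11.6 kb, with a κB and an AP-1 match, had 7.02, 4.91 and 4.89. The percentiles of the former were 87.1, 37.2 and 68.5, and of the latter 89.6, 73.9 and 74.0.

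The 3 loci beyond these were called in adult and aged/anti-IL-17 only. At 12.6 kb the fold enrichment was 4.53 in adult and 4.72 in aged/anti-IL-17. At 16.0 kb, where the printed κB match lies 16 bp from the adult summit and 3 bp from the other, it was 5.35 and 5.02. At 16.9 kb it was 4.78 in adult and 4.47 in aged/anti-IL-17. The nearest aged/IgG peak lay 443, 3960 and 4622 bp away. These adult peaks stood at percentiles 70.8, 79.8 and 74.0, in a decile of adult strength in which 25.8% of all peaks had no aged/IgG counterpart.

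Around its start Fosb had a peak of 4.99 in adult, 3.62 in aged/IgG and 3.28 in aged/anti-IL-17 that covered the κB match and CArG box in every list. An intronic peak 3.57 kb downstream (2.74), with a κB match at its summit, was called in adult only. Peaks 0.879 kb downstream (2.10) and 7.05 kb upstream (2.62) were called in aged/anti-IL-17 only.

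Fosl1, which encodes Fra-1, had its only assigned peak at the start site. The fold enrichments were 6.94 in adult, 4.70 in aged/IgG and 7.93 in aged/anti-IL-17 (percentiles 89.3, 70.4 and 93.2), so that the aged/IgG value was lowest on both scales. The peak held no exact κB match. A pair of peaks lay 17.4 and 15.5 kb upstream of Fosl1, where the start of AI837181 was nearer. The first had 8.58, 3.78 and 6.25, with percentiles 93.9, 49.5 and 86.0, and was stronger than the Fosl1 start peak in adult and weaker in the aged lists. The second had 9.74, 7.93 and 10.16 and was stronger than the start peak in each list. The summit of the first is printed because 2 overlapping κB matches, counted as 1 site and shown in capitals, lie beside it in all 3 lists.
17.4 kb upstream of Fosl1, chr19:5430107-5430227: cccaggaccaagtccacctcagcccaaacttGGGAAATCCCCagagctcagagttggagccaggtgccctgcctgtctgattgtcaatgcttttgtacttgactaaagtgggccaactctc

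Fosl2, which encodes Fra-2, had its strongest assigned peak in an intron 3.31 kb downstream. The fold enrichments were 6.59 in adult, 4.52 in aged/IgG and 5.76 in aged/anti-IL-17, and a κB match, in capitals, lay in the peak in every list.
Fosl2 3.31 kb downstream, chr5:32139790-32139910: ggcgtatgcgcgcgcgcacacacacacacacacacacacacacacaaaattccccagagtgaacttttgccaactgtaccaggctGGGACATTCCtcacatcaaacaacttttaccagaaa
Weaker peaks stood at and just upstream of the start, between 2.27 and 3.60. A peak 14.5 kb upstream was called in adult at 3.19 and in aged/anti-IL-17 at 3.39 only. The strongest peak within 50 kb lay 46.9 kb downstream in an intron of Gm36732, whose start was nearer. It had 16.26 in adult, 12.68 in aged/IgG and 13.95 in aged/anti-IL-17 and ranked 40, 41 and 44. It held no exact κB match and no AP-1 match.

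Batf, whose product pairs with Jun and with interferon regulatory factors in immune cells, had 1 peak in an intron 19.1 kb downstream. Its fold enrichment was 5.25, 4.83 and 4.69 in adult, aged/IgG and aged/anti-IL-17, at percentiles 78.9, 72.6 and 71.4, which lay close together. With predicted transcripts added, another start was nearer to this peak and Batf had none assigned. A κB match at the edge of the peak was inside the adult and aged/anti-IL-17 peaks only. Batf and Jund were the only members, of 8 with an entry in the promoter table, whose RefSeq promoter window overlapped no peak. The share of all promoters that overlapped a peak is not given here, so this is described without a comparison.

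Atf3, a stress-induced gene whose product often represses transcription, had the same 4 loci in all lists. The strongest lay 10.7 kb upstream, with 15.91 in adult, 10.84 in aged/IgG and 13.55 in aged/anti-IL-17, and ranked 45, 77 and 53. It held 1 AP-1 match. The peaks 1.82 and 2.79 kb upstream had 4.52, 3.30 and 4.12, and 4.66, 3.91 and 4.77, with the lowest value in aged/IgG in both, also by percentile (70.7, 31.0 and 61.9, and 72.4, 53.4 and 72.4). At the start site the order was different, with 3.75, 4.38 and 3.63 (percentiles 55.2, 64.4 and 47.9). None of the Atf3 peaks in any list held an exact κB match.

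Merged into loci, the assigned peaks fell at 38 places. Of these, 22 were called in all 3 conditions (57.9%, against 36.6% of 9513 loci of all genes) and 7 in adult and aged/anti-IL-17 only (18.4%, against 17.0%). A further 5 were called in adult only (13.2%, against 31.6%) and 4 in aged/anti-IL-17 only (10.5%, against 8.01%). No AP-1 locus was called in aged/IgG without both others, where the shares over all loci were 3.91% for adult and aged/IgG only, 1.05% for both aged lists only and 1.84% for aged/IgG only. Thus 12 of 38 loci were called in adult and not in aged/IgG (31.6%, against 48.5% of all loci). With the list labelled adult and that of aged/anti-IL-17 exchanged, the count was 11 of 38 (28.9%, against 25.0%), so that the share was below that of all loci with the lists as labelled and above it with the lists exchanged. When each list was cut to its 4169 strongest peaks it was 6 of 32 (18.8%), close to the 18.9% of all loci.

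The same comparison by peak gave 25 of 38 adult AP-1 gene peaks with an overlapping aged/IgG peak (65.8%, against 45.5% of all adult peaks) and 33 with an aged/anti-IL-17 peak (86.8%, against 60.4%). All 26 aged/IgG peaks overlapped an adult peak, against 93.3% of that list. All 26 also overlapped a peak of aged/anti-IL-17, against 86.6%. Of the 36 aged/anti-IL-17 peaks 32 overlapped an adult peak (88.9%, against 85.6%) and 25 an aged/IgG peak (69.4%, against 59.9%). Adult peaks absent from aged/IgG and present in aged/anti-IL-17 numbered 8 of 38 (21.1%), close to the 19.3% of all adult peaks.

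Whether a peak had a counterpart moved with its strength. Among all adult peaks the share without an aged/IgG counterpart was 86.7% in the weakest decile of fold enrichment and 0% in the strongest. The AP-1 gene peaks were not spread evenly over these deciles, with 12 of 38 in the eighth and 6 in the ninth. In the eighth decile 4 of 12 lacked a counterpart, namely those of Fosb and the Junb peak 3.76 kb upstream, beside 25.8% of all peaks there. In the ninth decile it was 0 of 6, beside 6.57%, in the sixth 1 of 3, beside 63.1%, in the fourth 2 of 5, beside 76.7%, and in the third 3 of 3, beside 82.8%, so that AP-1 gene peaks lay on either side of the share of all peaks. The part of strength in the higher overlap of AP-1 gene peaks was not tested.

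Among the 22 loci called in all 3 lists, the percentile was highest in adult at 13 (59.1%, against 62.9% of 3486 such loci of all genes), in aged/IgG at 5 (22.7%, against 9.64%) and in aged/anti-IL-17 at 4 (18.2%, against 27.5%). It was lowest in aged/IgG at 11, against 61.2% of all such loci, and in aged/anti-IL-17 at 10 (45.5%, against 27.1%). The adult share was close to that of all loci. The value in aged/anti-IL-17 was above that in aged/IgG at 11 of 22, against 68.7% of all such loci. The value in aged/IgG was above that in adult at 5 of 22, against 17.2% of them. The loci lowest in aged/anti-IL-17 included both Jund loci, the start sites of Jun and Fosb, and all 3 Junb loci called in every list. The Junb start-site peak was merged into the locus of the strongest Junb peak. Taken alone, that start-site peak was lowest in aged/IgG, with percentiles 70.6 in adult, 23.7 in aged/IgG and 42.6 in aged/anti-IL-17. By fold enrichment in place of percentile, aged/anti-IL-17 was above aged/IgG at 10 of 22.

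**Figure D3:**
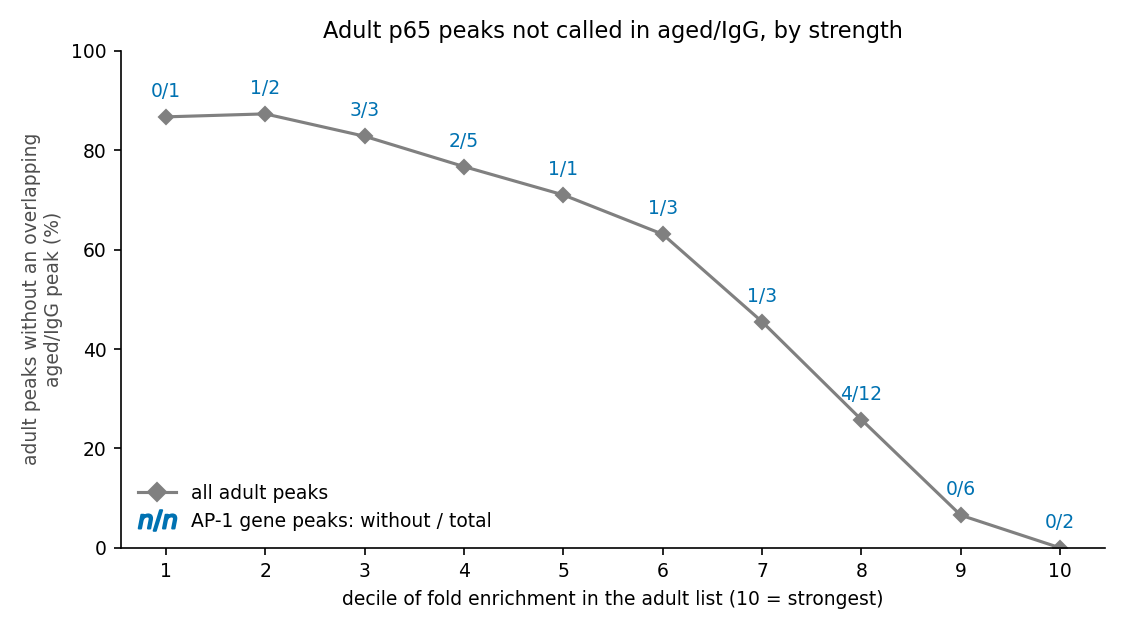
Share of adult peaks with no overlapping aged/IgG peak (y axis, %) by decile of adult fold enrichment (x axis), for all 8525 adult peaks (line). Numbers give the AP-1 gene peaks without a counterpart of those in the decile, as in 4 of 12 in the eighth.

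**Figure D4:**
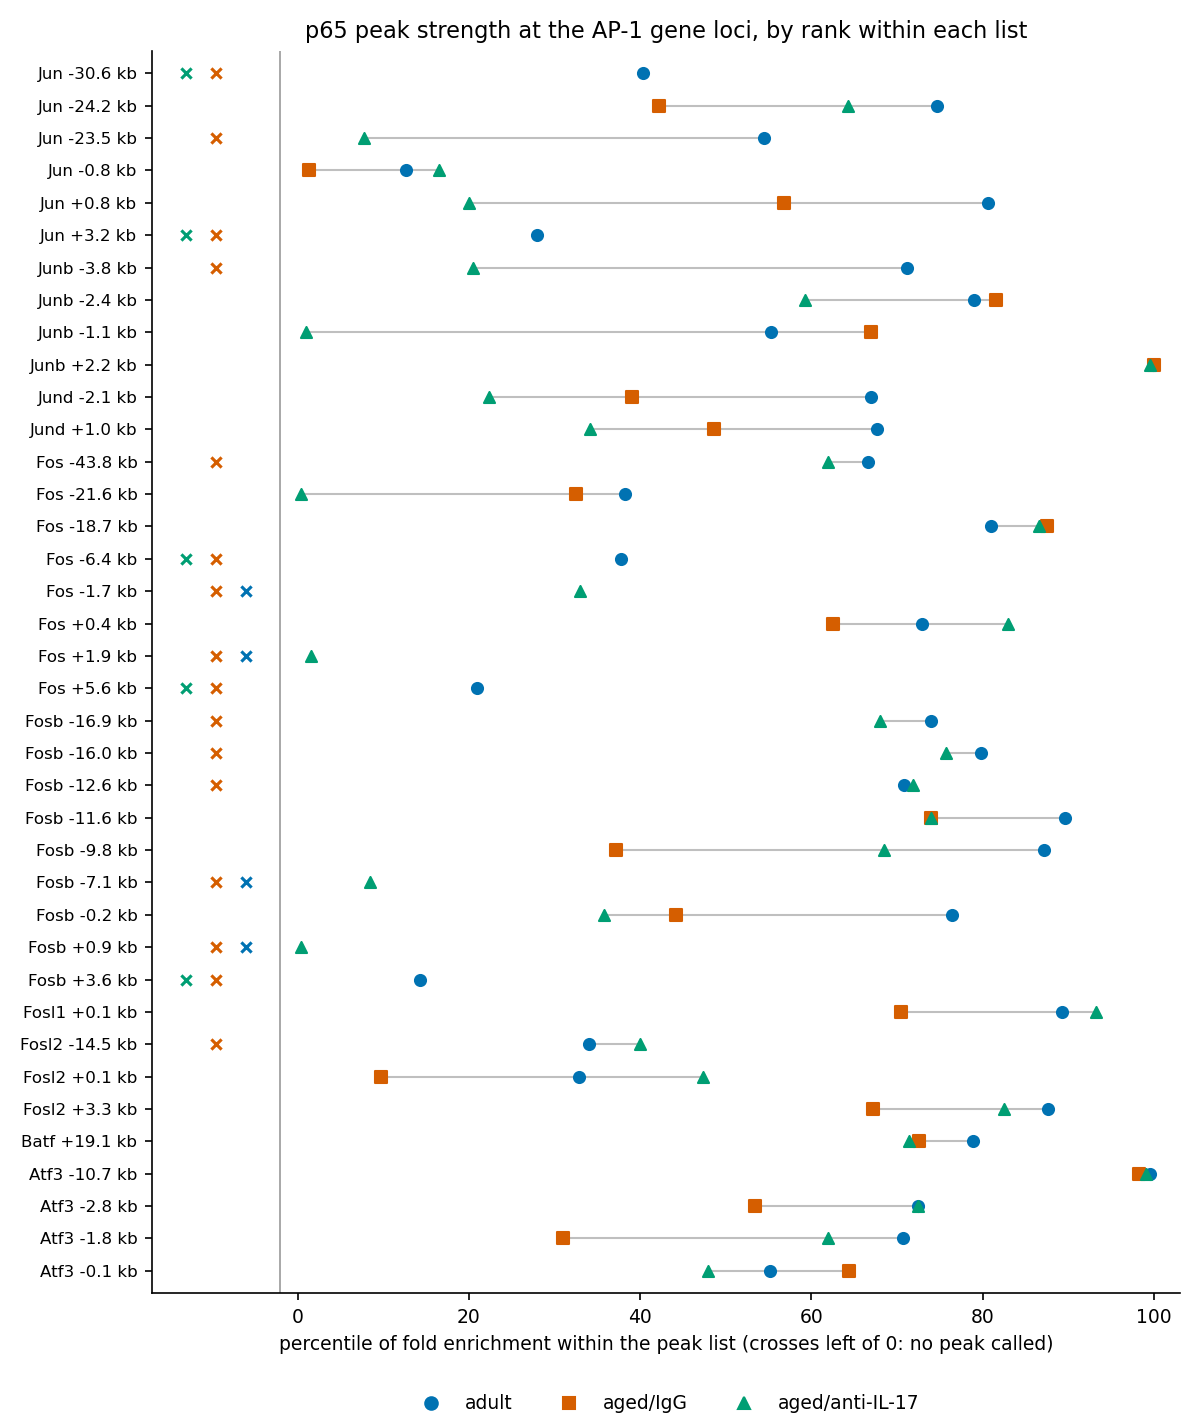
Percentile of fold enrichment within its own list (x axis) of the strongest peak at each of the 38 AP-1 gene loci (rows, named by gene and distance from the start site), with colour and shape for the condition and crosses where no peak was called. Orange crosses mark the 16 of 38 loci with no aged/IgG peak (42.1%, against 56.6% of all loci), and the Junb locus at +2.2 kb and the Atf3 locus at -10.7 kb stand at the right edge in all 3 lists.

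The median percentile of the AP-1 gene peaks was 70.7 in adult, 51.0 in aged/IgG and 47.6 in aged/anti-IL-17, where 50 is the middle of a list. Their median width was 612, 518 and 582 bp, against 452, 431 and 444 bp for all peaks. Their median GC content was 58.4, 60.7 and 57.1%, against 53.8, 53.1 and 53.0%. The RefSeq promoters of the 8 members with an entry had a median GC content of 62.3%, against 52.7% of 32851 promoters.

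The κB motif was found in 20 of 38 adult AP-1 gene peaks (52.6%, 95% Wilson interval 37.3 to 67.5%), in 9 of 26 aged/IgG peaks (34.6%, 19.4 to 53.8%) and in 16 of 36 aged/anti-IL-17 peaks (44.4%, 29.5 to 60.4%). The shares in all peaks were 34.9, 44.7 and 41.9%. The adult share was thus above that of its list, with the list's value outside its interval, and the other shares lay within counting error of theirs. Both statements depended on where the motif was sought. Within 100 bp of the summit the shares were 36.8% in adult (23.4 to 52.7%, against 28.8% of all peaks), 26.9% in aged/IgG (13.7 to 46.1%, against 1586 of 4169 peaks of that list) and 19.4% in aged/anti-IL-17 (9.75 to 35.0%, against 35.2%). There the adult list value lay inside the interval and that of aged/anti-IL-17 just above it. Peaks 1 to 10 kb from the start had the highest share in adult, with 12 of 16 (75.0%, 50.5 to 89.8%) against 37.5% of all adult peaks in that range. Peaks of 1 gene share sequence context, wider peaks have more room for a match, and AP-1 gene peaks were wider than others, so these counts are not independent. Their part in the difference was not tested.

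**Figure D5:**
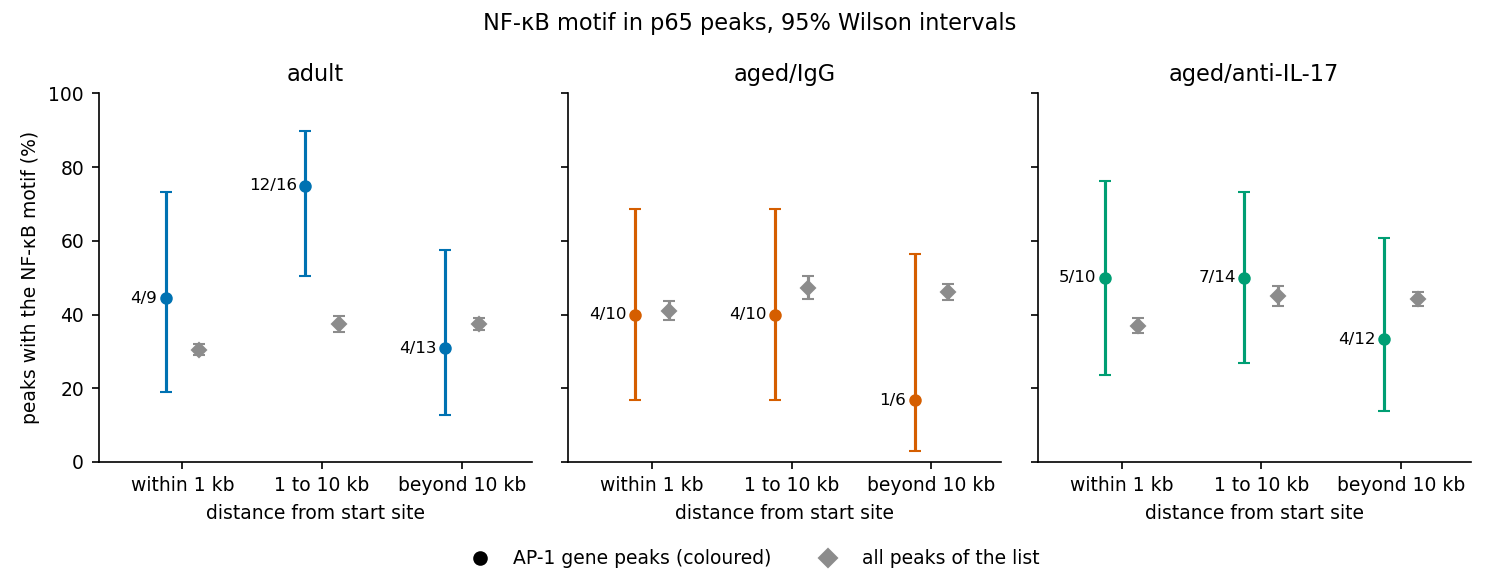
Share of peaks with the κB motif (y axis, %) by distance of the peak from the start site (x axis), for AP-1 gene peaks (circles, with counts) and all peaks of the list (diamonds), with 95% Wilson intervals for counting error. The adult peaks at 1 to 10 kb stand at 75.0% against 37.5%, and the other intervals of AP-1 gene peaks include the value of all peaks.

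The AP-1 site TGACTCA itself was found in 8 of 38 adult AP-1 gene peaks (21.1%), 4 of 26 aged/IgG peaks (15.4%) and 8 of 36 aged/anti-IL-17 peaks (22.2%), against 17.9, 18.7 and 19.7% of all peaks. These shares lay within counting error of each other. Among promoters of all genes 5.20% held this site and 4.51% the κB motif. The κB motif was in 3 of the 8 AP-1 promoters with an entry, those of Fos, Fosb and Fosl2, and the AP-1 site was in none.

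Lists of related genes, 4 in all, gave a frame for these counts, against the same 23.0, 12.9 and 17.4% of all genes. Of 14 immediate early genes outside AP-1, 14 had an assigned peak in adult, 11 in aged/IgG and 13 in aged/anti-IL-17, with the strongest peak nearest to Klf4 (12.70, 10.68 and 11.81) at a distance of 371 kb. Of 20 other basic leucine zipper genes, 13, 7 and 7 had a peak, and the strongest lay at the start of Creb1 (10.65, 6.58 and 6.29). Of 19 kinases of the JNK, p38 and ERK routes, which phosphorylate AP-1 proteins, 12, 5 and 7 had a peak. The strongest was that of Map3k11 in aged/IgG (7.94) and of Map3k7 in the other lists. Map3k7, which encodes the kinase TAK1 upstream of both NF-κB and JNK, had 11.69, 7.04 and 9.87. Of 10 dual-specificity phosphatases that switch these kinases off, 5 had a peak in every list. The strongest Dusp1 peak had 12.27 in adult, 9.10 in aged/IgG and 7.02 in aged/anti-IL-17. It lay 5.33 kb from the start in adult and 29.6 kb in aged/IgG, so that these values do not belong to 1 site. Dusp8 was strongest in aged/anti-IL-17 (8.03). The AP-1 genes were the one group of the 5 in which each gene had a peak in every condition, which describes these lists and was not tested.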

How the data were processed

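For p65 in epidermal cells, 1 ChIP–seq peak list was deposited for each of 3 conditions, and the 3 input samples of the series were not analysed here. The study's methods state that reads were trimmed (Trimmomatic 0.36 in the submitters' processing notes), aligned to mm10, merged over the 4 mice of a condition, deduplicated, brought to an equal read number and given to MACS2. Whether inputs served as background in that step is not given in the sources used here. The deposited columns hold, as MACS2 wrote them for the authors, a whole-number score, the fold enrichment at the summit, and the −log10 of a p-value and of a q-value. The lowest −log10 q was 2.23, 2.07 and 2.08 in adult, aged/IgG and aged/anti-IL-17, so that a weak site can be called in one list and missed in another. Pooling removed the variation between mice.

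Peaks were assigned by midpoint to the nearest start site of curated RefSeq transcripts of GRCm38.p6, lists were joined by overlap of at least 1 bp, and motifs were searched on both strands with exact patterns. The κB and CArG motifs were consensus patterns, and overlapping matches counted as 1 site. Promoters came from a RefSeq table of the same build, in which 8 of 9 members matched (not Fosl1). Intervals are 95% Wilson intervals. Python 3.11.15, scipy 1.17.1 and pysam 0.24.0 were used, figures were drawn with matplotlib 3.10.9, and the assignment, overlap (against bedtools 2.31.1) and motif steps were tested on simulated data. The genes named are the 9 members, genes nearest to peaks within 50 kb of them, and the most strongly bound gene of each of 4 related lists. Members and lists were chosen with earlier results of these data known. Of the genes nearest to window peaks, AI837181 and Gm36732 are named, and the others are given only by counts. The nearest inexact κB words, the CArG boxes, the order of loci by percentile and the merging of wide peaks into loci were added after seeing the data. Alternatives were other start-site sets, summits in place of midpoints, stricter q-value thresholds, lists of equal length, other overlaps, windows and motif definitions, and exchanged lists.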

Additional observations from a re-analysis of the deposited data

How the results depend on the processing

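All 9 AP-1 genes had an assigned peak in each condition with start sites of protein-coding genes only, with summits in place of midpoints, with a −log10 q of at least 5 or 10 and with lists of equal length. With all RefSeq transcripts, predicted ones included, the number was 8, since the Batf peak was nearer to another start. The number of assigned peaks per list stayed within 1.5 times of the reported value, but 38, 26 and 36 became 26, 26 and 24 with lists of equal length, which removes the lower number in aged/IgG. The count of loci called in adult and not in aged/IgG was 12 of 38 (31.6%, all loci 48.5%) and became 6 of 32 (18.8%, all loci 18.9%) with lists of equal length, where only the 4169 strongest peaks of each list remain. With a −log10 q of at least 5 it was 13 of 36 (36.1%, all loci 48.0%), and with at least 10 it was 9 of 30 (30.0%, all loci 45.7%). With an overlap of at least 50% of both peaks it was 15 of 45 (33.3%, all loci 48.5%). With summits within 200 bp it was 16 of 48 (33.3%, all loci 48.3%). With the adult and aged/anti-IL-17 lists exchanged it was 11 of 38 (28.9%, all loci 25.0%), which turns a share below that of all loci into one above it. The share of AP-1 gene peaks with the κB motif depended on its definition. Within 100 bp of the summit it was 36.8% in adult (all peaks 28.8%), 26.9% in aged/IgG (1586 of 4169 peaks) and 19.4% in aged/anti-IL-17 (35.2%), so that the higher adult share was no longer outside counting error, and with a broader 11-base motif it was 97.4, 92.3 and 97.2% in adult, aged/IgG and aged/anti-IL-17, against 86.1, 87.3 and 87.2% of all peaks, of which the adult value lay just below the interval of 86.5 to 99.5%. The median over members of the strongest peak's percentile was 87.6, 72.6 and 82.5. It was 89.3 in adult and 86.6 in aged/anti-IL-17 with start sites of protein-coding genes only, 88.5 in adult and 68.8 in aged/IgG with all RefSeq transcripts, and 71.0 in aged/IgG by −log10 q or by −log10 p. No paired analysis was possible because each condition has 1 pooled list, and for the same reason no replicate could be left out. The read depth behind single peaks is unknown, and a peak near the threshold in one list and absent from another need not differ in signal.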
